A study of Homo sapiens with 6 samples.

Results

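The anaphase-promoting complex or cyclosome (APC/C) is a ubiquitin ligase of many subunits, and 10 genes of the complex, its activators and its direct partners were examined here among the 58735 genes of the table. They were taken by gene symbol, each symbol matched 1 row, and all 10 were among the 13748 genes tested. The cells were HaCaT, a spontaneously immortalised human keratinocyte line labelled as wild type, in 2 groups of 3 samples. The first group is labelled as control, and the second received dacomitinib, an irreversible inhibitor of EGFR family receptor kinases, for 48 h, from a confluence of 70%. Both values are given for the dacomitinib group, and no time or confluence was recorded for the controls. The design text attaches 0.1% DMSO to the experimental group, while neither the dose nor a vehicle for the controls is stated there or in the labels. Separate cultures are not mentioned in the labels, so the spread behind each p-value may be technical only. Control columns were matched by the initial and number of their titles. The remaining 3 columns bear a letter found in no label and were taken as dacomitinib by elimination, so every direction below rests on that assignment. Replicate numbers given below for dacomitinib are those of the columns, which were not matched to single samples.

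The APC/C marks mitotic regulators for destruction by the proteasome. CDC20 activates it at the metaphase to anaphase transition, and FZR1 (also called CDH1) activates it from late mitosis through G1. UBE2C and UBE2S are the E2 enzymes that bring ubiquitin to it, starting and extending the chains. FBXO5 (EMI1) inhibits the complex before mitosis. PTTG1 (securin) holds the protease separase, encoded by ESPL1, inactive until the APC/C has it degraded, after which separase cuts cohesin and sister chromatids part. CDC16, CDC23 and CDC27 are subunits of the core built from tetratricopeptide repeats. Keratinocytes divide in the basal layer of the epidermis and leave the cell cycle as they move up, and many genes of mitosis are transcribed mainly in cycling cells.

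Libraries held 14960650 to 16179273 fragments on genes, and log2 values correlated across genes at 0.970 to 0.979 for libraries of 1 group and at 0.870 to 0.888 for libraries of different groups, where genes are not independent. All 10 keratinocyte markers had a mean FPKM (fragments per gene, adjusted for its length and for the size of the library) of at least 1, and their sum was 1466 to 1550 in controls and 1226 to 1473 with dacomitinib. They did not move one way: 4 rose (DSG3, ITGB4, KRT17 and PERP) and 3 fell, and KRT14 measured 225 to 251 FPKM in controls and 116 to 144 FPKM with dacomitinib. Of 19 markers of fibroblasts, endothelial cells, melanocytes and immune cells, 2 reached that level (CDH5 and COL3A1). The sum of all 19 was 3.99 to 4.59 FPKM in controls and 15.4 to 19.2 FPKM with dacomitinib, of which CDH5 alone made up 1.06 to 1.22 and 8.60 to 11.4 FPKM. COL3A1, DCN, LUM, VWF, PMEL and DCT also lay higher with dacomitinib, without overlap of the groups. DCN measured 0.0101 to 0.0330 FPKM in controls and 0.638 to 1.24 FPKM with dacomitinib, and VWF 0.275 to 0.367 and 1.16 to 1.21 FPKM. The ranges of COL1A1, PECAM1 and MLANA overlapped. The fibroblast markers summed to 0.853 to 1.24 FPKM in controls and 2.28 to 3.62 FPKM with dacomitinib. The immune markers summed to 0.0632 to 0.170 FPKM in controls and 0.0125 to 0.143 FPKM with dacomitinib, and COL1A2, PDGFRA, KDR and TYR were at 0 in every library. The part of such cells in the results was not tested.

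With dacomitinib, 9 of the 10 genes fell and 1, CDC16, rose, by limma on log2(FPKM + 1) at a Benjamini-Hochberg adjusted p under 0.05. Of all genes tested, 60.2% were called, 34.8% lower and 25.4% higher, so a call alone sets none of the 10 genes apart. The genes fell by very different amounts. CDC20, UBE2C, UBE2S, PTTG1, ESPL1 and FBXO5 had differences of -3.90 to -1.84 on the log2(FPKM + 1) scale, whereas those of FZR1, CDC23 and CDC27 were -0.76 to -0.49. A fall of at least 1 was called for these 6 of the 10 genes and for 6.81% of all genes tested (4.06% with FPKM rescaled to equal sums in all libraries, and the same count of 6). The median difference was -2.24 over the 10 genes and -0.06 over all genes tested. FPKM of the groups did not overlap for any of the 10 genes, which held for 67.1% of all genes tested. In bulk RNA, fewer cells in mitosis and less RNA per cell cannot be told apart.

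**Figure D1:**
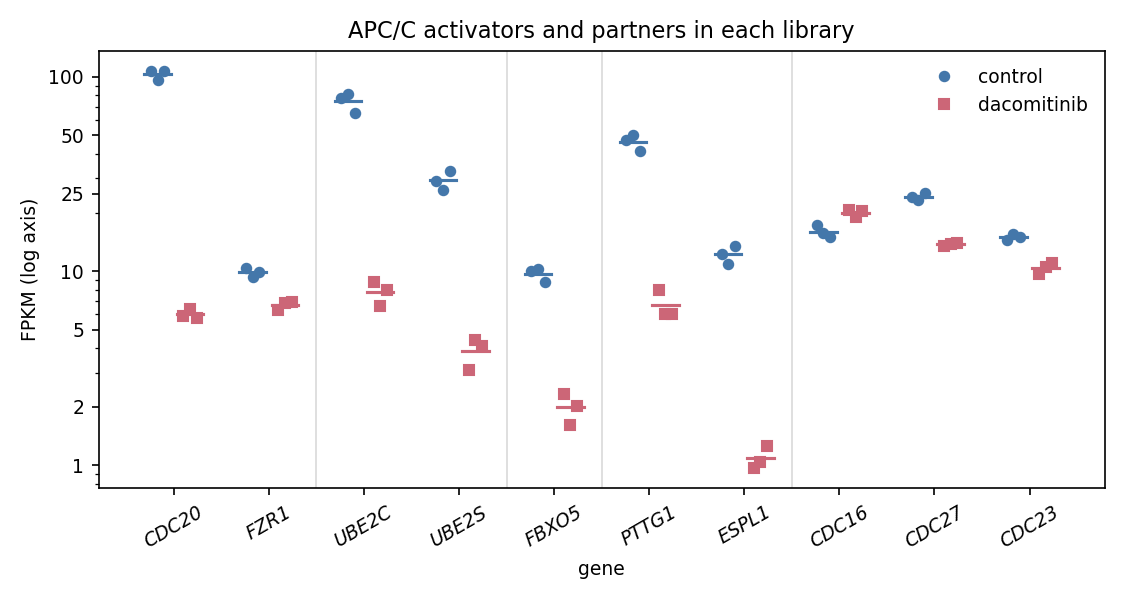
FPKM of each of the 10 genes in each library, on a log axis, with circles for the 3 controls, squares for the 3 dacomitinib libraries and a bar at each group's mean. CDC20 lies between 96.1 and 107 FPKM in controls and between 5.72 and 6.39 FPKM with dacomitinib, and CDC16 is the gene whose dacomitinib values lie above the controls.

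Promoter sequences of the genes were read from RefSeq (GRCh38.p14), which had 12 windows for 9 of the 10 genes (the promoter of UBE2C was not analysed here), each of 250 bases before and 50 after a transcription start. TTTGAA is a core sequence of the cell cycle genes homology region, bound by the MuvB complex. CCAAT is the box bound by NF-Y, and both are known from promoters of genes expressed in G2 and mitosis. On either strand, TTTGAA stood in 4 of the 12 windows and in 15.2% of all 35116 promoter windows of the same length. CCAAT stood in 9 of the 12, of 8 genes, and in 34.6% of all. The 2 windows of PTTG1 overlap and hold the same CCAAT matches. Both stood together in 1 window each of 3 genes, CDC20, ESPL1 and FBXO5, and in 5.90% of all windows. Of the E2F-type motifs, TTTCCCGC stood in 2 of the 12 windows, of CDC16 and CDC23 (1.63% of all), and TTTCGCGC (0.515% of all) and TTTGGCGC (0.652% of all) in 0. These matches are descriptions of letters, not of binding. Only these exact letters were searched, so a window without TTTGAA is not shown to lack the homology region in another form. The stretches below lie within 150 bases before the start and outside untranslated regions annotated in GENCODE 29, and are shown to set genes that fell strongly (CDC20, ESPL1, FBXO5 with both its starts, PTTG1 and UBE2S) beside genes that fell little (CDC23 and FZR1). The stretches of UBE2S and FZR1 and that of the first start of FBXO5 hold no match. Those of CDC27, CDC16 and the second start of FZR1 are not shown and hold no TTTGAA or CCAAT either. The stretch of the second start of PTTG1 lies within that of the first and is not shown. Each is read 5′ to 3′ on the gene's strand, and capitals mark TTTGAA and CCAAT or their reverse complements TTCAAA and ATTGG.
CDC20, chr1:43358831-43358954, plus strand: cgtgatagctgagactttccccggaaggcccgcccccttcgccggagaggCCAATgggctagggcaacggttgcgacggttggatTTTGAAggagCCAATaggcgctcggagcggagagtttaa
ESPL1, chr12:53268149-53268298, plus strand: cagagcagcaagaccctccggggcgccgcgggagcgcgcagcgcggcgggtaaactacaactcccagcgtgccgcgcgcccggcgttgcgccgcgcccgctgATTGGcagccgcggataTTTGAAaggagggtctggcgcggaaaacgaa
FBXO5, first start, chr6:152983580-152983729, minus strand: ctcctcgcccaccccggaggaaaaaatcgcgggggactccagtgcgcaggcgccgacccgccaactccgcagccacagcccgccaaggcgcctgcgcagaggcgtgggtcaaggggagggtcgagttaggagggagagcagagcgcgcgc
FBXO5, second start, chr6:152983042-152983191, minus strand: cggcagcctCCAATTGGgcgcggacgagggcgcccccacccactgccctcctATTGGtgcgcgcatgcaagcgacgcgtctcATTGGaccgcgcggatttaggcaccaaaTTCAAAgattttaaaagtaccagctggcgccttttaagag
PTTG1, first start, chr5:160421712-160421821, plus strand: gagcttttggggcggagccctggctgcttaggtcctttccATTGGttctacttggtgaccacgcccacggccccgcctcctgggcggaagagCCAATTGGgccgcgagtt
UBE2S, chr19:55407789-55407938, minus strand: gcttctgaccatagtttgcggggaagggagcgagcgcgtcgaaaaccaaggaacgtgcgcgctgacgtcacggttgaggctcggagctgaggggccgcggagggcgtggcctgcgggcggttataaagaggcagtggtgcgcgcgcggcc
CDC23, chr5:138213344-138213473, minus strand: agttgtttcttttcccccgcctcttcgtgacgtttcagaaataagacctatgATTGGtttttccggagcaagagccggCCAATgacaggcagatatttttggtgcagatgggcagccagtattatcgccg
FZR1, first start, chr19:3506161-3506272, plus strand: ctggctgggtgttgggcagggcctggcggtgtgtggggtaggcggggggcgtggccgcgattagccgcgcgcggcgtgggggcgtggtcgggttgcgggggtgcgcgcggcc

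The TTTGAA matches nearest the start began at position -65 in CDC20, -31 in ESPL1 and -40 in FBXO5, counted back from the start. In FZR1 the match began at -226, outside the stretch shown. PTTG1 held CCAAT matches and no TTTGAA in either of its windows. UBE2S held 1 CCAAT match, at -191, and no TTTGAA, and the window of the first start of FBXO5 held neither. CCAAT also stood in the windows of CDC23 (3 matches) and CDC27 (at -226), which fell little, and of CDC16 (at -183), which rose, and so was not limited to genes that fell strongly.

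The activators differed in how far they fell. CDC20 (ENSG00000117399, chromosome 1, 43358955 to 43363203, GRCh38) measured 107, 96.1 and 107 FPKM in the controls and 5.89, 6.39 and 5.72 FPKM with dacomitinib. All dacomitinib values lay far below the lowest control. The mean fell from 104 ± 6.48 to 6.0 ± 0.346 FPKM (SD, n = 3), which left 5.80% of the control level, and the log2 difference was -3.90 (SE 0.06, limma adjusted p = 2.90e-07). Ranked from the largest fall in log2(FPKM + 1), CDC20 stood at place 4 of the 13748 genes tested. That place depends on the scale, which understates falls of weakly expressed genes. Between 3019 and 3211 fragments per control library and 201 to 216 per dacomitinib library lay behind these values.

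FZR1 (ENSG00000105325, chromosome 19, 3506273 to 3538330), the other activator, measured 10.4, 9.28 and 9.85 FPKM in the controls and 6.29, 6.85 and 6.95 FPKM with dacomitinib. The groups were close but separate. The mean fell from 9.85 ± 0.572 to 6.70 ± 0.353 FPKM (SD, n = 3), and the log2 difference was -0.49 (SE 0.06, limma adjusted p = 0.000581). With FPKM rescaled to equal sums in all libraries it was -0.21 (limma adjusted p = 0.0466). FZR1 kept 68.0% of its control FPKM. Its exons share 70 bases with MFSD12 on the opposite strand, 1.21% of its exonic length. The files and labels do not state whether the counting used strand.

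Within each library the FPKM of CDC20 was set against that of FZR1, a ratio that does not depend on a factor common to the library. It was 10.3, 10.4 and 10.9 in the controls and 0.937, 0.933 and 0.823 with dacomitinib. CDC20 RNA was about 10 times that of FZR1 per length in controls, and below it in every dacomitinib library. The log2 ratio changed by -3.55 (SE 0.07), with an exact two-sided permutation p = 0.1 (n = 3 per group), the smallest that 3 against 3 libraries can give, and 0.133 after Benjamini-Hochberg adjustment over the 4 ratios examined.

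Among tested protein-coding genes, those with the smallest root mean square distance from CDC20 in log2(FPKM + 1), centred on each gene's mean over the 6 libraries, were TUBA1B (0.08), RRM2 (0.08) and KIF20A (0.10). They encode an alpha-tubulin, a subunit of ribonucleotide reductase and a mitotic kinesin. TUBA1B fell from 119 ± 11.9 to 6.88 ± 0.456 FPKM (SD, n = 3). RRM2 fell from 20.7 ± 2.03 to 0.415 ± 0.0617 FPKM and KIF20A from 51.8 ± 0.759 to 2.34 ± 0.187 FPKM (SD, n = 3). The added 1 understates the fall of RRM2, which ended below 1 FPKM, so a small distance here is not an equal fold change. For FZR1 the nearest genes were PWP1 (0.02), UBE2V2 (0.03) and SLC16A1 (0.03), whose own differences lay between -0.52 and -0.48. With equal FPKM sums UBE2V2 and SLC16A1 did not pass. This distance over 6 libraries in 2 groups reflects mainly the difference between the groups.

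Both E2 enzymes fell. UBE2C (ENSG00000175063, chromosome 20, 45812576 to 45816957), which starts ubiquitin chains on substrates, measured 77.7, 81.5 and 65.3 FPKM in the controls and 8.74, 6.61 and 8.0 FPKM with dacomitinib. Every control was several times the highest dacomitinib value. The mean fell from 74.8 ± 8.47 to 7.78 ± 1.08 FPKM (SD, n = 3), a log2 difference of -3.11 (SE 0.12, limma adjusted p = 3.47e-06). UBE2S (ENSG00000108106, chromosome 19, 55399745 to 55407777), which extends chains through lysine residues of ubiquitin, measured 29, 26.2 and 32.8 FPKM in the controls and 3.11, 4.43 and 4.12 FPKM with dacomitinib. Controls and dacomitinib libraries were again widely apart. Its mean fell from 29.3 ± 3.30 to 3.89 ± 0.692 FPKM (SD, n = 3), a log2 difference of -2.64 (SE 0.13, limma adjusted p = 8.50e-06).

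The ratio of UBE2C to UBE2S was 2.68, 3.11 and 1.99 in the controls and 2.81, 1.49 and 1.94 with dacomitinib. These ranges overlapped, and the change of the log2 ratio was -0.34 (SE 0.33, exact two-sided permutation p = 0.4, adjusted 0.4, n = 3 per group). Leaving out 1 library at a time moved it between -0.58 (without dacomitinib replicate 1) and -0.13 (without dacomitinib replicate 2). Both genes have pseudogenes among which reads could have been divided. Summed over 3 libraries, UBE2CP2 held 41 control and 83 dacomitinib fragments, against 4266 and 508 for UBE2C. UBE2SP1 held 71 and 46, against 3615 and 550 for UBE2S.

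FBXO5 (ENSG00000112029, chromosome 6, 152970519 to 152983579), the inhibitor, measured 10.0, 10.2 and 8.78 FPKM in the controls and 2.32, 1.62 and 2.02 FPKM with dacomitinib. The lowest control lay well above the highest dacomitinib value. Behind these values were 495 to 605 fragments per control library and 103 to 149 per dacomitinib library, the fewest among the 10 genes. The mean fell from 9.69 ± 0.788 to 1.99 ± 0.353 FPKM (SD, n = 3), a log2 difference of -1.84 (SE 0.11, limma adjusted p = 1.86e-05). FBXO5 and FZR1, the activator it restrains, had like FPKM in controls, with ratios of 0.964, 1.10 and 0.892. With dacomitinib the ratio was 0.369, 0.237 and 0.291. The log2 ratio changed by -1.74 (SE 0.21, exact two-sided permutation p = 0.1, adjusted 0.133, n = 3 per group).

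Securin and separase fell as well. PTTG1 (ENSG00000164611, chromosome 5, 160421822 to 160428744), the inhibitor and chaperone of separase, measured 47.4, 49.8 and 41.4 FPKM in the controls and 7.96, 6.02 and 6.02 FPKM with dacomitinib. Separation was wide, with the lowest control several times the highest dacomitinib value. Mean FPKM fell from 46.2 ± 4.33 to 6.67 ± 1.12 FPKM (SD, n = 3), a log2 difference of -2.63 (SE 0.12, limma adjusted p = 6.38e-06). The related gene PTTG2 was listed at 0 in every library, and the treatment of reads shared by near-identical genes is stated neither in the labels nor in the table.

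ESPL1 (ENSG00000135476, chromosome 12, 53268299 to 53293643), the protease itself, measured 12.2, 10.9 and 13.5 FPKM in the controls and 0.968, 1.04 and 1.27 FPKM with dacomitinib. The lowest control was many times the highest dacomitinib value. Mean FPKM fell from 12.2 ± 1.30 to 1.09 ± 0.156 FPKM (SD, n = 3), which left 8.93% of the control level, against 14.4% for PTTG1. On the log2(FPKM + 1) scale the difference of ESPL1 was -2.66 (SE 0.10, limma adjusted p = 3.16e-06), a scale that understates falls of weakly expressed genes. With limma-voom on fragments recovered from the FPKM it was -3.40. The ratio of PTTG1 to ESPL1 was 3.89, 4.56 and 3.06 in the controls and 8.22, 5.80 and 4.75 with dacomitinib. All dacomitinib ratios were above all control ratios, and the log2 ratio rose by 0.69 (SE 0.28), with an exact two-sided permutation p = 0.1 (adjusted 0.133, n = 3 per group) and a range of 0.47 (without dacomitinib replicate 1) to 0.87 with 1 library left out.

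**Figure D2:**
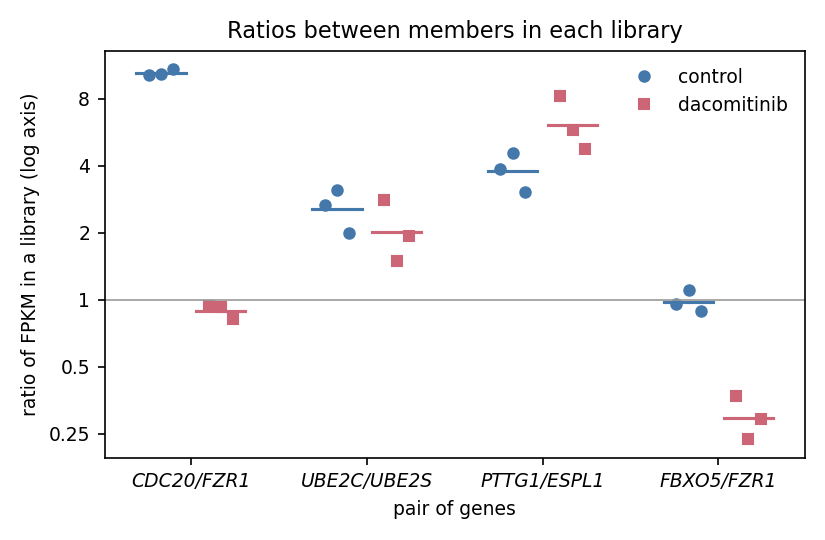
Ratio of FPKM between 2 genes within each library, on a log axis, for the 4 pairs, with circles for controls, squares for dacomitinib and a bar at the geometric mean. CDC20/FZR1 moves from 10.3 to 10.9 in controls to 0.823 to 0.937 with dacomitinib, while the UBE2C/UBE2S ranges overlap.

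The core subunits did not move together. CDC27 (ENSG00000004897, chromosome 17, 47117703 to 47189422), a subunit that binds the activators, measured 24.0, 23.1 and 25.1 FPKM in the controls and 13.5, 13.9 and 13.9 FPKM with dacomitinib. The groups were far apart relative to their narrow spread. Its mean fell from 24.1 ± 0.974 to 13.8 ± 0.199 FPKM (SD, n = 3), a log2 difference of -0.76 (SE 0.05, limma adjusted p = 2.18e-05), and of -0.46 with equal FPKM sums. CDC16 (ENSG00000130177, chromosome 13, 114234887 to 114272723), a structural subunit of the same arm, measured 17.2, 15.7 and 14.9 FPKM in the controls and 20.7, 19.0 and 20.4 FPKM with dacomitinib. Every dacomitinib value exceeded the highest control. The mean rose from 15.9 ± 1.16 to 20.0 ± 0.910 FPKM (SD, n = 3), a log2 difference of 0.31 (SE 0.06, limma adjusted p = 0.00518), and of 0.61 with equal FPKM sums.

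CDC23 (ENSG00000094880, chromosome 5, 138187648 to 138213343), another subunit of that arm, measured 14.4, 15.6 and 14.9 FPKM in the controls and 9.63, 10.5 and 10.9 FPKM with dacomitinib. Every control again exceeded the highest dacomitinib value. Mean FPKM fell from 15.0 ± 0.583 to 10.3 ± 0.668 FPKM (SD, n = 3), a log2 difference of -0.50 (SE 0.06, limma adjusted p = 0.000465). This call was lost with equal FPKM sums (-0.20, limma adjusted p = 0.0517), against adjusted p-values of 2.85e-05 to 0.0524 over all alternatives. The exons of CDC23 share 68 bases, 1.47% of their length, with KIF20A on the opposite strand. KIF20A stood at 51.8 ± 0.759 FPKM in controls and 2.34 ± 0.187 FPKM with dacomitinib (SD, n = 3), and the part of shared reads in the fall of CDC23 was not tested. Exons of FBXO5 share 157 bases (4.10%) with AL080276.2, and those of CDC27 126 bases (1.85%) with AC002558.2, both on the opposite strand. AL080276.2 stood at 0.301 ± 0.134 FPKM in controls and 0.184 ± 0.0603 FPKM with dacomitinib (SD, n = 3). AC002558.2 stood at 0.0642 ± 0.111 and 0.262 ± 0.229 FPKM (SD, n = 3).

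The order of the genes by FPKM, a scale per length, was largely turned over. In controls it ran CDC20, UBE2C, PTTG1, UBE2S, CDC27, CDC16, CDC23, ESPL1, FZR1 and FBXO5. Neighbours overlapped there only for CDC16 with CDC23 and for FZR1 with FBXO5. With dacomitinib the core subunits CDC16, CDC27 and CDC23 stood first, followed by UBE2C, FZR1, PTTG1 and CDC20, each of which overlapped its neighbour, and then by UBE2S, FBXO5 and ESPL1. Fragments on the 10 genes made up 0.0912 to 0.0947% of the control libraries and 0.0335 to 0.0356% of the dacomitinib libraries.

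Scaling between libraries moves all genes together. With equal FPKM sums the median over all tested genes went from -0.06 to 0.20 on the log2 scale, and calls in the direction higher made up 68.0% of all calls, where the deposited scaling gave 42.2%. Of the 10 genes 8 then fell and 1 rose, beside 19.8% lower and 42.1% higher of all genes tested. Relative to the median of all genes, the difference of FZR1 was -0.44 with the deposited scaling and -0.42 with equal sums. For CDC20 these values were -3.84 and -3.81, and for CDC16 0.37 and 0.41.

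**Figure D3:**
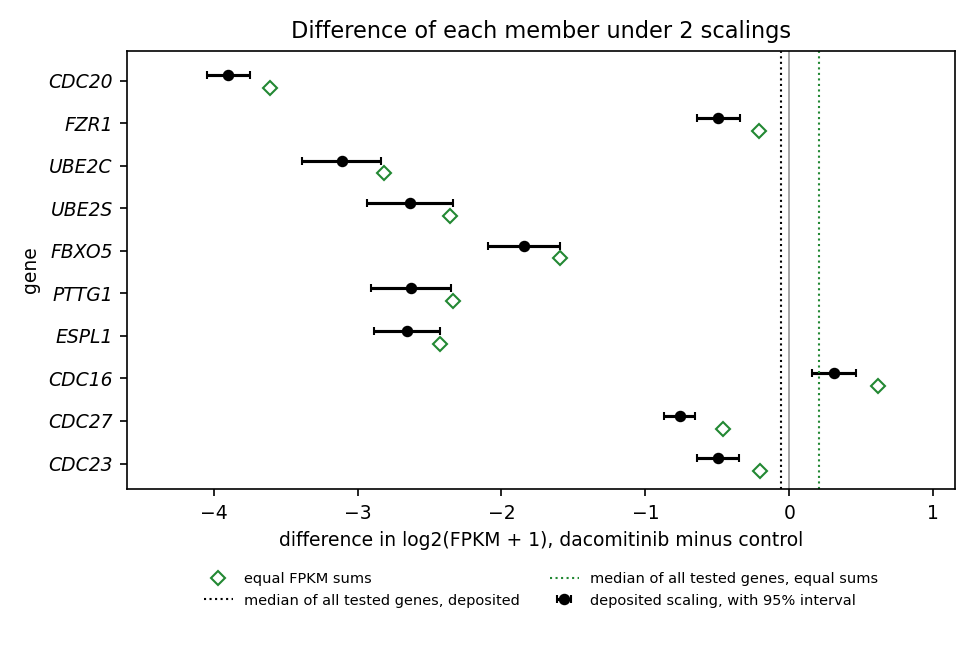
Difference of each gene in log2(FPKM + 1), dacomitinib minus control, as filled circles with 95% intervals for the deposited scaling and open diamonds for equal FPKM sums, with dotted lines at the medians of all tested genes (-0.06 and 0.20). All 10 genes keep their direction under both scalings, from CDC20 at -3.90 and -3.61 to CDC16 at 0.31 and 0.61.

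Counts in the lists that follow stand beside 34.8% lower and 25.4% higher of all genes tested (19.8% and 42.1% with equal FPKM sums). Of the other 11 subunits of the complex 7 fell, 1 rose and 3 did not pass, with a median log2 difference of -0.39. Without control replicate 1, 4 fell and 1 rose, and without dacomitinib replicate 3, 6 fell and 2 rose. With equal FPKM sums, 3 fell, 2 rose and 6 did not pass, with a median of -0.09, and the values of ANAPC2, ANAPC4 and ANAPC10 changed sign. With the deposited scaling the 3 that did not pass were ANAPC4 at -0.16, ANAPC10 at -0.14 and ANAPC13 at 0.18. ANAPC7, a further repeat subunit, fell from 11.2 ± 0.875 to 5.07 ± 0.542 FPKM, and ANAPC11, the RING subunit that binds the E2, from 7.95 ± 0.711 to 3.84 ± 0.201 FPKM (SD, n = 3). ANAPC16 rose from 19.3 ± 1.07 to 28.8 ± 1.19 FPKM (SD, n = 3). The lowest of the 11 differences was -1.01, which lay above those of the 6 strongly lower partners of the complex.

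The mitotic checkpoint holds CDC20 inactive until chromosomes are attached. Genes of the checkpoint and its regulators, not all of them inhibitors of CDC20, fell in 8 of 8 cases. Their median log2 difference was -2.51, and with equal FPKM sums 7 of 8 fell, as MAD2L1BP did not pass. The count was 7 of 8 also with the other scalings tried, with limma-voom and with no filter on low values. Leaving out control replicate 1 or 2, or dacomitinib replicate 2 or 3, gave 7 of 8 as well. BUB1B, a part of the inhibitory complex, fell from 27.8 ± 1.2 to 2.40 ± 0.410 FPKM (SD, n = 3). TRIP13, which remodels the checkpoint protein MAD2, fell from 23.8 ± 1.08 to 2.53 ± 0.0599 FPKM (SD, n = 3). Of 20 genes whose proteins the APC/C marks for destruction, all 20 fell, also with equal FPKM sums, with a median of -2.70 and a range of -3.41 to -0.96. These 20 were chosen with earlier results of these data known, so the count does not describe APC/C substrates as a class. Cyclin B1 (CCNB1) fell from 108 ± 4.51 to 9.73 ± 0.467 FPKM and the kinase PLK1 from 29.9 ± 2.68 to 1.90 ± 0.181 FPKM (SD, n = 3). RNA measurements do not show how much of these proteins was degraded.

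Cohesin genes, the ring that separase opens and its regulators, gave 8 of 9 lower and 1 higher, with a median of -0.50. With equal FPKM sums 5 fell and 1 rose, and STAG2, PDS5A and WAPL changed sign. CDCA5 (sororin), which is itself degraded through the APC/C, fell from 32.5 ± 2.65 to 5.00 ± 0.525 FPKM, and the ring subunit SMC1A from 16.7 ± 1.39 to 5.66 ± 0.315 FPKM, while PDS5B rose from 11.3 ± 0.632 to 17.2 ± 0.670 FPKM (SD, n = 3).

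Other ubiquitin enzymes gave a background for the E2 enzymes and the complex. Of 30 further E2 genes 13 fell, 7 rose and 10 did not pass, with a median of -0.10, and with equal FPKM sums 5 fell and 15 rose with a median of 0.20. The count of rises was 3 without control replicate 1, 4 without control replicate 3 and 3 without dacomitinib replicate 3. UBE2T, the E2 of the Fanconi anaemia pathway, fell the most among them, from 31.7 ± 2.98 to 5.31 ± 1.09 FPKM (SD, n = 3), a log2 difference of -2.39 beside -3.11 for UBE2C and -2.64 for UBE2S. UBE2N fell by 1.05, and UBE2R2 and UBE2H rose by 0.63 and 0.49 on the log2 scale. Of 11 genes of the SCF, the other large ligase of the cell cycle, 7 fell and 3 rose, with a median of -0.43 (5 and 4 with equal FPKM sums, where FBXW11 changed sign and rose). Its F-box genes differed in direction, with CCNF falling from 11.6 ± 0.993 to 1.32 ± 0.254 FPKM and FBXW7 rising from 2.34 ± 0.0686 to 4.16 ± 0.119 FPKM (SD, n = 3). CKS1B, a cofactor of SKP2, fell by 2.03 on the log2 scale.

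BUB1, SKP2, CDC34, UBE2R2 and BTRC each stand in more than 1 of the lists. Of 10 genes that act on FZR1 or FBXO5, 7 fell and 2 rose, with a median of -0.50 (6 and 2 with equal FPKM sums). CDK1, which phosphorylates the APC/C and keeps FZR1 off it, fell from 50.5 ± 4.04 to 5.02 ± 0.345 FPKM, and E2F1, a factor known to drive FBXO5 transcription, from 14.4 ± 0.761 to 1.54 ± 0.157 FPKM (SD, n = 3). EVI5, which stabilises the FBXO5 protein, rose from 3.94 ± 0.234 to 6.33 ± 0.0938 FPKM, and BTRC, the F-box protein that directs FBXO5 to degradation, from 5.54 ± 0.489 to 6.80 ± 0.543 FPKM (SD, n = 3). The call of BTRC (limma adjusted p = 0.0315) was lost with no filter on low values (0.0695), without control replicate 2 (0.0577) or 3 (0.083) and without dacomitinib replicate 2 (0.091) or 3 (0.0567).

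**Figure D4:**
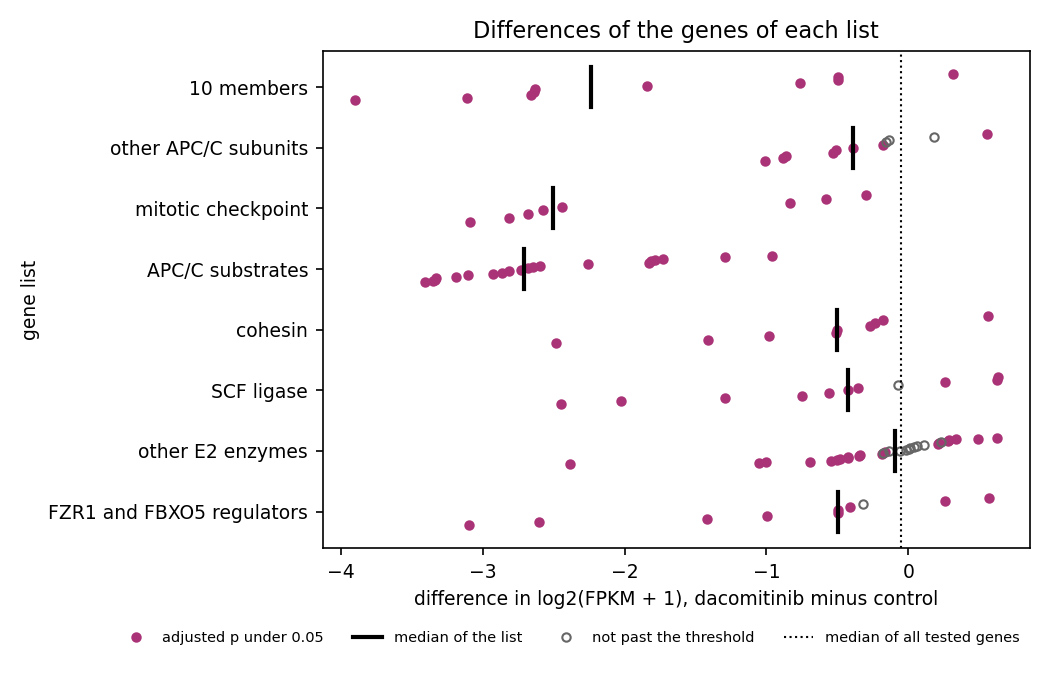
Difference in log2(FPKM + 1), dacomitinib minus control, of each gene of the 10 and of 7 related lists, with filled points past an adjusted p of 0.05, open points not past it, a bar at each list's median and a dotted line at the median of all tested genes (-0.06). Substrates and checkpoint genes have medians of -2.70 and -2.51, and the other APC/C subunits -0.39.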

How the data were processed

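RNA was measured in 6 HaCaT samples. The authors deposited FPKM per gene; CASAVA, fastp, HISAT2, featureCounts and DESeq2 1.20.0 are named with GRCh38 in the submitters' processing notes, with no role stated. Multiplied by gene length and by a library size inferred from their steps, 100% of FPKM values came out as whole fragments (tolerance 0.01), which gave fragments per gene. That library size was 0.952 ± 0.00449 times the sum of fragments in controls and 1.07 ± 0.0244 with dacomitinib (SD, n = 3), so libraries had been scaled before deposit. Differences were tested with limma 3.58.1 (R 4.3.3, mean-variance trend) on log2(FPKM + 1) for genes whose mean FPKM reached 1, two-sided. Ratios between genes were tested by exact permutation (SciPy 1.17.1). On simulated fragments for dacomitinib against control (13167 genes tested), 60% of 50 genes changed by 0.5 and 100% of 50 changed by 2 were recovered, with 10 false calls. Median estimates were 1.70 for a true change of 2 and 2.74 for 3. The simulation set the dispersion (spread beyond counting noise) at 0.0025 and changed far fewer genes than were called here. It thus gives no error rate for the real libraries. Gene positions are from the table, and all 10 matched GENCODE 29. Named genes are the 10, up to 2 rises and 2 falls per list, the 3 nearest to CDC20 and to FZR1, and other subunits and copies. The 10 genes and the lists were chosen with earlier results of these data known. Alternatives were other pseudocounts, filters, scalings, no trend, a replicate block, limma-voom and leaving out each library.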

Additional observations from a re-analysis of the deposited data

How the results depend on the processing

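Under 17 alternatives, 168 of 170 values of the 10 genes kept their direction and their side of the threshold. The 2 others were CDC23 with equal FPKM sums (-0.20, limma adjusted p = 0.0517) and with TPM (-0.21, limma adjusted p = 0.0524), an alternative chosen after seeing the data. Genes called lower, 4778 as reported, were 2728 with equal sums and 2721 with TPM. Genes called higher, 3493 as reported, were 5786 and 5779 with these, and 1946 with a minimum mean FPKM of 5, where fewer genes are tested. Replicate numbers did not pair the libraries (correlations of deviations 0.03, -0.02 and 0.04 for numbers 1, 2 and 3). With a replicate block 9 of the genes fell and 1 rose, with 4618 lower and 3265 higher of all, and CDC20 had a limma adjusted p of 5.84e-05. With 1 library left out, 9 fell and 1 rose each time, and all genes called were 4283 to 4647 lower and 3036 to 3223 higher. Then CDC20 ranged from -3.95 to -3.87, FZR1 from -0.53 to -0.46, and the log2 ratio of CDC20 to FZR1 from -3.58 to -3.49. The planned edgeR and DESeq2 fits were not run, and limma-voom was the one test used on the recovered fragments.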
